A study of Mus musculus with 12 samples.

Results

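Cell cycle genes were followed across 12 mouse hearts as 39 named genes, taken from the normalized count table by exact match of the gene symbol. All 39 were among the 53807 distinct symbols of the table. They were sorted by role into 7 G1 cyclins and cyclin-dependent kinases, 7 DNA replication genes, 10 G2 and M cyclins, kinases and checkpoint genes, 11 kinetochore, spindle and cytokinesis genes, and 4 mitotic chromosome genes. The mice were C57BL/6, 4 months old, and 8 weeks past surgery, with 3 hearts in each of 4 groups. Control mice (Ctrl) carried the CIP-KI-flox allele, a CIP transgene at Rosa behind a floxed stop. CIP-OE mice carried the same allele together with aMHC-Mer-Cre-Mer, a Cre that tamoxifen activates and that the αMHC promoter drives in cardiomyocytes. Hearts received transverse aortic constriction (TAC), which loads the left ventricle with pressure, or a sham operation (Sham). Since only the CIP-OE mice carried Cre, raised CIP and activated Cre cannot be told apart.

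Cells that divide pass from G1, where D-type cyclins with CDK4 and CDK6 phosphorylate RB, through DNA replication into G2 and mitosis, which cyclin B with CDK1 starts. Most cardiomyocytes of the mouse leave this cycle soon after birth. Growth of the adult heart under pressure load is mainly enlargement of these cells, while fibroblasts and endothelial cells keep the ability to divide. In resting cells the DREAM complex holds mitotic genes silent through a promoter sequence called CHR, often with CCAAT boxes upstream, and E2F sites serve the same role at many replication genes.

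The promoters of 33 of the 39 genes were matched by symbol in a RefSeq table (GRCm38.p6), which gives 250 bases before and 50 bases from the start of transcription on. The CHR letters TTTGAA were present on either strand in 17 of the 33 genes (51.5%), against 20.2% of the 27025 genes of the table. CCAAT was present in 26 (78.8%), against 41.1%, and both together in 15 (45.5%), against 7.97%. The E2F letters GCGGGAA were present in 3 genes (9.09%, against 5.29%), and the longer GGCGGGAA, which contains them, in 2 (6.06%, against 2.52%). A match is a run of letters in this window and not a mapped binding site. The windows of Cenpf, Ccnb2 and Mki67 are shown because all 3 hold the CHR letters and CCAAT, while of the 3 only Cenpf was called in a comparison below with all libraries and the deposited scaling, and Ccnb2 lay under the filter on low values. Each runs from 150 bases before the start to the first 30 bases transcribed, on the minus strand of GRCm38.p6, with TTTGAA and CCAAT on either strand in capitals.
Cenpf (chr1:189688057-189688236): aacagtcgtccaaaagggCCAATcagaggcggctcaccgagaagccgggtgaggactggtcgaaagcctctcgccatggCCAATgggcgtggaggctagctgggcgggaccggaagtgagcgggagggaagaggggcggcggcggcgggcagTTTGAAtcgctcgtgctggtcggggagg
Ccnb2 (chr9:70421525-70421704): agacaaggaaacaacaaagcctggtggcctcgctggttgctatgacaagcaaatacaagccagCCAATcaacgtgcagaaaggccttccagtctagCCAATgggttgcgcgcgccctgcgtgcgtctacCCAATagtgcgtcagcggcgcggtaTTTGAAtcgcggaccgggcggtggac
Mki67 (chr7:135716350-135716529): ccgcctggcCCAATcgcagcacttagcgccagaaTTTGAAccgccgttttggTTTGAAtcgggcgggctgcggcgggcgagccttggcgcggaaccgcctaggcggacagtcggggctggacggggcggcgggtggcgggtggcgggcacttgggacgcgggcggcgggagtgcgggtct
In Cenpf the TTTGAA began 2 bases after the start, with CCAAT 71 and 132 bases before it. In Ccnb2 it began 4 bases after the start, with CCAAT 21, 54 and 87 bases before it. Mki67 held TTTGAA 98 and 116 bases before the start and CCAAT 141 bases before it.

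The libraries held between 6990445 and 7704812 reads assigned to genes, and normalized counts are those reads divided by 1 factor per library. Mlip, the mouse gene of CIP, lay between 823 and 1322 normalized counts in the 6 Ctrl hearts and between 1911 and 8232 in the 6 CIP-OE hearts. The lowest of the 6 was the CIP-OE-Sham library KI_Sham_3737, where KI in a library name stands for CIP-OE. The 3 Ctrl-TAC libraries differed from the other 9 in base composition. Genes with a GC content above 54.3% stood 0.56 to 0.87 log2 units above those under 44.8% in Ctrl-TAC, relative to the mean over libraries, and -0.53 to 0.020 in the others. Because that property coincides with 1 group, the main changes that set Ctrl-TAC against another group are given also after a GC correction, in the text or in the plot of log2 changes. With it limma called 7.19% of 13264 genes higher and 7.59% lower in Ctrl-TAC against Ctrl-Sham, and 1.03% and 1.52% in CIP-OE-TAC against Ctrl-TAC. Marker sums moved as well: the 6 fibroblast genes lay at 5054 ± 251 in Ctrl-Sham and 10399 ± 2387 in Ctrl-TAC (SD, n = 3), with 3 of the 6 called higher, 2 of the 6 below 0 and a median log2 change of 0.46. The 5 erythroid genes lay at 269 ± 36.4 and 1033 ± 390 (2 tested, 1 called higher), and the 6 endothelial genes at 4835 ± 141 and 6554 ± 719 (2 called higher). The 6 smooth muscle and pericyte genes lay at 7516 ± 324 and 5711 ± 563. Of these 6, 4 had a log2 change above 0 and 2 below, at a median of 0.48, with 2 called higher and 1 lower. The 8 cardiomyocyte genes lay at 308360 ± 15682 in Ctrl-Sham and 255600 ± 31571 in Ctrl-TAC. Of these 8, 2 were called lower and none higher, and 7 lay below 0, at a median of -0.34. Their means in the 4 groups lay between 255600 and 315290. The 6 macrophage genes lay at 1047 ± 208 in Ctrl-Sham and 963 ± 241 in Ctrl-TAC, with ranges that overlap. Of these 6, 2 had a log2 change above 0 and 4 below, at a median of -0.15, with 1 called lower. The 7 lymphocyte genes summed to at most 20.4, with 2 of the 7 at 0 throughout. A lower level in a whole heart can be fewer cells of a type or less RNA per cell, which these data cannot tell apart.

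Transcripts of the cell cycle were scarce in all 4 groups apart from most G1 genes. Per kb of transcript, averaged over the 12 hearts, Ccnd2 stood highest at 170 normalized counts, then Cdk4 at 158, Ccnd1 at 126, Ccnd3 at 53.0 and Pcna at 35.9. Mki67, the antigen Ki-67 that marks cycling cells, reached 2.61 per kb. Only 25 genes had a value of at least 10 in 3 or more hearts and were tested, and 14 did not, among them 8 of the 10 G2 and M genes. Ccnb1, the cyclin that starts mitosis with Cdk1, gave 10 reads over all 12 libraries, Bub1 17, Aurkb 21, Ccnb2 37, Plk1 38 and Cdk1 54. Kif11, the spindle motor Eg5, was listed at 0 in every library, and whether that reflects its level or how the gene was counted cannot be told from the table. The other genes under this filter (Ccne1, Aurka, Birc5, Cenpe, Kif20b, Ect2 and Aspm) gave between 40 and 96 reads, and none of the 14 passed 19.9 normalized counts in any heart. These 14 were left out of the main test. In a fit of 25627 genes without the filter, which held 13 of them, Aspm, a protein of the spindle poles, was called higher in Ctrl-TAC than in Ctrl-Sham (log2 change 1.75, adjusted p = 0.036). Its reads were 1, 0 and 6 in Ctrl-Sham and 14, 8 and 5 in Ctrl-TAC, which overlap. In this comparison that fit called 2380 of the 25627 genes higher and 1879 lower.

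**Figure D1:**
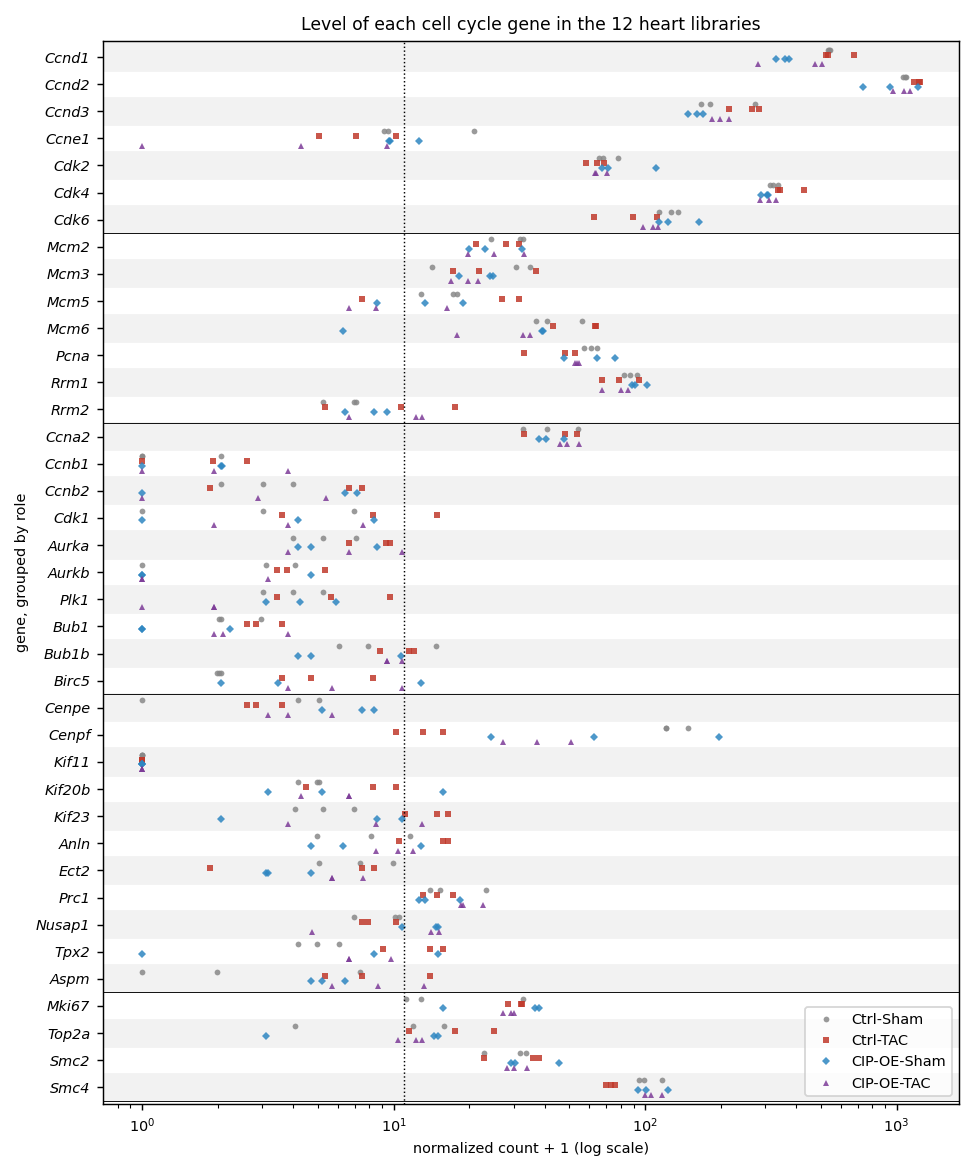
Normalized count + 1 (log axis) of each of the 39 genes, 1 point per library, coloured by group, with the genes grouped by role and the dotted line at a normalized count of 10. Most G2, M and spindle genes lie left of the line, and the Cenpf points of Ctrl-TAC (9.24 to 14.8) stand far left of those of Ctrl-Sham (120 to 148).

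The normalized counts of all 39 genes summed to 2997, 3063 and 3016 in Ctrl-Sham and to 3250, 3214 and 3022 in Ctrl-TAC. CIP-OE-Sham gave 2421, 2681 and 2873, and CIP-OE-TAC gave 2920, 2798 and 2509. All 6 CIP-OE sums lay below all 6 Ctrl sums, but not once Cenpf was left out (2876 in Ctrl_Sham_4010 and 2884 in KI_TAC_3577). The 7 G1 genes made up 78.4% of the total, so this sum mostly reports the D-type cyclins and Cdk4. Taken alone, the 7 G1 genes did not separate the genotypes either (2274 in Ctrl_Sham_4033 and 2318 in KI_TAC_3577). For the 32 genes outside G1 the means were 675 ± 59.2 in Ctrl-Sham, 593 ± 72.5 in Ctrl-TAC, 655 ± 39.8 in CIP-OE-Sham and 585 ± 32.9 in CIP-OE-TAC. With Cenpf left out they became 545 ± 66.7, 581 ± 74.4, 561 ± 77.3 and 548 ± 23.5, which overlap in all 4 groups. Sums were not tested.

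**Figure D2:**
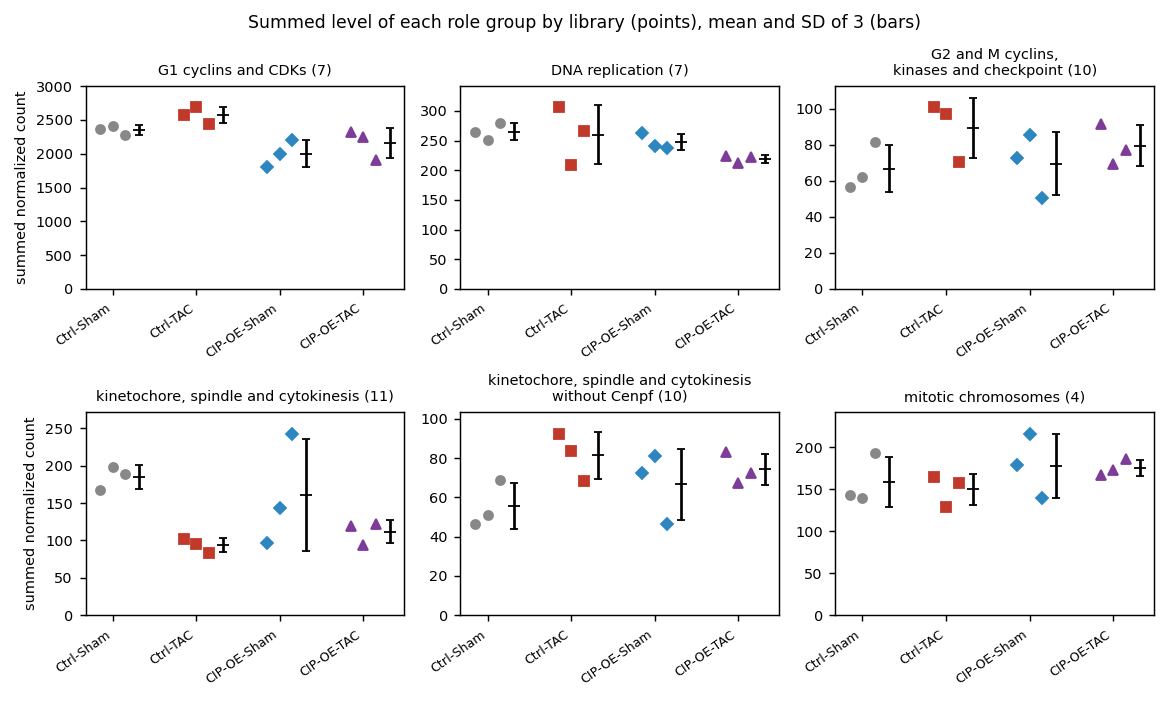
Summed normalized count of each role group (number of genes in brackets) by library, with the mean and SD of 3 hearts. The kinetochore, spindle and cytokinesis sum of Ctrl-TAC (83.3 to 102) lies under that of Ctrl-Sham (167 to 198) with Cenpf included, and without Cenpf the 2 ranges meet (68.6 to 92.4 and 46.7 to 68.9).

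The first comparison asked what TAC did to these genes in Ctrl hearts. Of the 25 genes tested, 1 fell (Cenpf) and none rose in Ctrl-TAC against Ctrl-Sham, where limma over 13392 genes called 13.7% lower and 16.8% higher (adjusted p under 0.05 and more than 1.5-fold). Either way, 30.5% of all genes were called. Among the 25, 6 had an unadjusted p under 0.05, against 49.5% of all genes, and the groups did not overlap for 8, against 50.8% of all genes. The median log2 change was 0.12 over the 25 and 0.0022 over all genes. Low counts widen the errors: 15 of the 25 had a mean under 50, with a median SE of 0.48 on the log2 scale against 0.20 over all genes. In that range of levels 26.7% of all genes were called, and none of the 15. At means of 50 or more 32.5% of all genes were called, and 1 of the 10.

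Cenpf encodes CENP-F (LEK1), a large microtubule-binding protein that sits at kinetochores in mitosis. In the mouse, loss of Cenpf from cardiomyocytes is known to lead to dilated cardiomyopathy. The gene lies at chr1:189640606-189688086 (minus strand, GRCm38), and no other annotated exon overlaps its exons. Its normalized counts were 120, 148 and 120 in Ctrl-Sham, 9.24, 12.2 and 14.8 in Ctrl-TAC, 23.4, 61.6 and 196 in CIP-OE-Sham, and 36.0, 26.3 and 49.8 in CIP-OE-TAC. Every Ctrl-TAC heart lay below every other heart, and CIP-OE-Sham spread more widely than any other group. The Ctrl-TAC values rest on 10, 15 and 17 reads, those of Ctrl-Sham on 113 to 145.

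Between Ctrl-Sham and Ctrl-TAC the mean of Cenpf fell from 129 to 12.05, and Ctrl-Sham stood 10.7-fold higher. The log2 change was -3.33 ± 0.593 (SE, limma, adjusted p = 0.00138). After the GC correction it was -2.92 (adjusted p = 0.00844), and without any 1 library it stayed between -3.48 and -3.17. Per kb of transcript Cenpf averaged 6.12 over the 12 hearts, against 0.433 for Cenpe, a motor of the kinetochore. Cenpf made up 70.0% of the summed kinetochore, spindle and cytokinesis counts in Ctrl-Sham, 12.9% in Ctrl-TAC, 58.4% in CIP-OE-Sham and 33.5% in CIP-OE-TAC. None of the other 5 tested genes of that group was called.

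**Figure D3:**
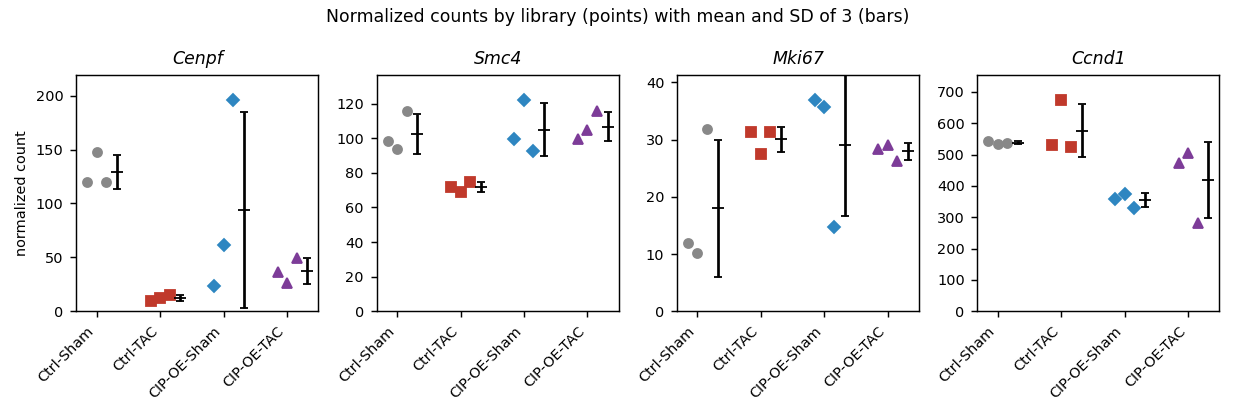
Normalized counts of Cenpf, Smc4, Mki67 and Ccnd1 by library (points), with the mean and SD of 3 hearts in each group. Cenpf is lowest in Ctrl-TAC (mean 12.05) and spread in CIP-OE-Sham (23.4 to 196), and Ccnd1 is lower in the CIP-OE-Sham hearts (330 to 374) than in the Ctrl-Sham hearts (534 to 544).

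Of the 6 tested kinetochore, spindle and cytokinesis genes, 3 had a log2 change above 0 and 3 below, and none of the 3 above 0 passed the test. Kif23, the central-spindle motor MKLP1 of cytokinesis, had values of 5.96, 3.05 and 4.24 in Ctrl-Sham and 10.2, 15.4 and 13.9 in Ctrl-TAC. These ranges did not overlap, but the counts are few (log2 change 1.401 ± 0.610, adjusted p = 0.0717, and 1.60 with adjusted p = 0.0671 after the GC correction). Tpx2, which activates Aurora A on the spindle, had a mean of 4.08 in Ctrl-Sham and 11.9 in Ctrl-TAC (log2 change 1.33 ± 0.720, adjusted p = 0.148, and 1.41 after the correction). Anln, the cytokinesis scaffold anillin, had means of 7.23 and 13.2 (log2 change 0.85, adjusted p = 0.162, and 1.13 after it). Beside Cenpf, those below 0 were Prc1, which bundles microtubules of the central spindle (-0.18 ± 0.331, adjusted p = 0.684), and Nusap1, a spindle-associated protein (-0.097 ± 0.466, adjusted p = 0.887). After the correction they gave 0.23 and 0.40. Without KI_Sham_3737, a library of neither group that enters the error estimate, Kif23 (adjusted p = 0.0321) and Tpx2 (0.0289) were called.

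Mki67 had values of 11.9, 10.2 and 31.8 in Ctrl-Sham and 31.4, 27.6 and 31.2 in Ctrl-TAC, so Ctrl_Sham_4033 lay with the Ctrl-TAC hearts. Its log2 change was 0.89 ± 0.380 (adjusted p = 0.0690), 1.06 (adjusted p = 0.0507) after the GC correction, and 1.37 (adjusted p = 0.00715) without that library. Without KI_Sham_3737 it was called as well (adjusted p = 0.0412). Top2a, the topoisomerase that untangles sister chromatids, gave 0.91 ± 0.588 (adjusted p = 0.226), and 1.32 (adjusted p = 0.117) after the GC correction. Summed, the 10 G2 and M genes gave 56.6, 62.1 and 81.6 in Ctrl-Sham against 101, 97.3 and 70.3 in Ctrl-TAC, and the 10 spindle genes without Cenpf gave 46.7, 50.9 and 68.9 against 92.4, 83.5 and 68.6. In both sums Ctrl_TAC_4231 fell inside the Ctrl-Sham range. Ccna2 alone had a mean of 41.5 in Ctrl-Sham and 44.0 in Ctrl-TAC, out of 66.8 and 89.4 for the 10 G2 and M genes. The fibroblast, endothelial and erythroid marker sums also lay higher in Ctrl-TAC (above). Those of cardiomyocytes and of smooth muscle and pericytes lay lower, and the macrophage sums overlapped. Of the 6 smooth muscle and pericyte genes, 4 had a log2 change above 0. The part of these cell types in the values was not tested.

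Smc4 and Cdk6 lay lower in Ctrl-TAC, each with an adjusted p under 0.05 but less than 1.5-fold. Smc4, the condensin ATPase, had values of 98.3, 93.6 and 116 in Ctrl-Sham and 72.0, 68.9 and 74.6 in Ctrl-TAC, with no overlap. Its log2 change of -0.50 ± 0.164 (adjusted p = 0.0194) became 0.061 (adjusted p = 0.821) after the GC correction. Cdk6, the partner of D-type cyclins, had values of 126, 134 and 112 in Ctrl-Sham and 88.7, 110 and 61.6 in Ctrl-TAC. Its log2 change of -0.55 ± 0.195 (adjusted p = 0.0303) became -0.26 (adjusted p = 0.362) after the correction. It passed 1.5-fold without Ctrl_TAC_3800 (-0.74, adjusted p = 0.0079) and without Ctrl_Sham_4033 (-0.62, adjusted p = 0.0383). Smc2, the condensin partner of Smc4, gave a log2 change of 0.12 ± 0.278 (adjusted p = 0.765).

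None of the most abundant G1 genes was called after TAC. Ccnd2 (cyclin D2) had values of 1093, 1075 and 1061 in Ctrl-Sham and 1173, 1225 and 1244 in Ctrl-TAC, which did not overlap, at a log2 change of 0.17 ± 0.145 (adjusted p = 0.356), which was 0.31 after the GC correction. Cdk4 had values of 338, 321 and 312 in Ctrl-Sham and 427, 342 and 338 in Ctrl-TAC, a log2 change of 0.18 ± 0.125 (adjusted p = 0.255), which was -0.14 after the GC correction. Ccnd1 (cyclin D1) had values of 544, 534 and 536 in Ctrl-Sham and 531, 674 and 524 in Ctrl-TAC, a log2 change of 0.089 ± 0.173 (adjusted p = 0.709), which was -0.044 after it. Only Ctrl_TAC_3800 stood above the Ctrl-Sham values of Ccnd1. Exons of Lto1 on the opposite strand overlap 1100 of the 4709 exonic bases of Ccnd1, and exons of Tspan31 overlap 641 of the 3249 of Cdk4. Opposite-strand exons overlap other members too, among them 510 of the 4083 exonic bases of Ccna2 (Exosc9) and 911 of the 8225 of Prc1 (Rccd1). The sources used here do not say whether reads were counted by strand, so part of these levels may come from the overlapping genes.

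None of the 7 replication genes was called in this comparison. Pcna, the sliding clamp of the replication fork, lay at 59.9 ± 3.68 in Ctrl-Sham and 43.6 ± 10.2 in Ctrl-TAC (log2 change -0.48 ± 0.222, adjusted p = 0.0927), with no overlap, and its change was -0.20 after the GC correction. The helicase subunits Mcm2, Mcm3, Mcm5 and Mcm6 had changes between -0.15 and 0.35, and the reductase subunits Rrm1 and Rrm2 -0.14 and 0.65, all with an adjusted p of 0.305 or more. Summed, the 7 genes gave 265 ± 14.2 in Ctrl-Sham, 260 ± 49.0 in Ctrl-TAC, 247 ± 13.4 in CIP-OE-Sham and 219 ± 6.38 in CIP-OE-TAC. Ccna2 (cyclin A2), which serves S phase and mitosis, lay between 31.8 and 53.6 in all 12 hearts with no difference near the threshold.

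**Figure D4:**
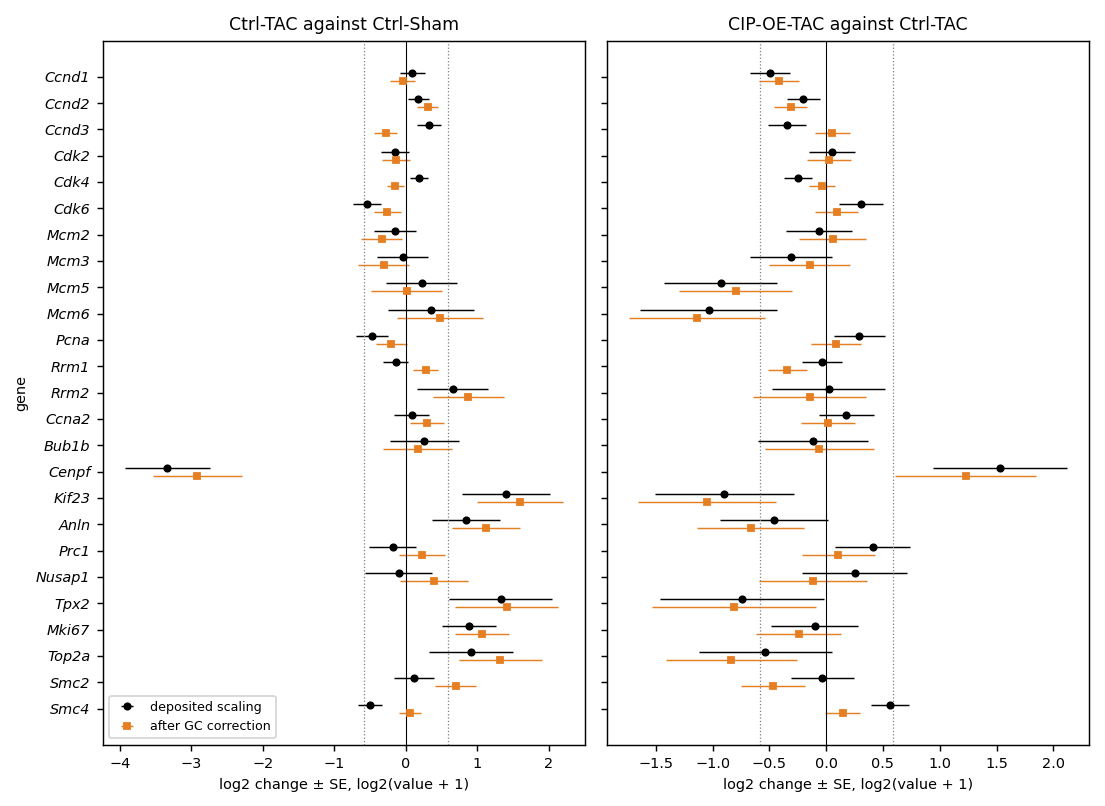
Log2 change ± SE, on the log2(value + 1) scale, of the 25 tested genes in Ctrl-TAC against Ctrl-Sham (left) and CIP-OE-TAC against Ctrl-TAC (right), with the deposited scaling (circles) and after GC correction (squares), and dotted lines at 1.5-fold. Cenpf (-3.33 and -2.92) stands apart on the left, while Smc4 moves from -0.50 to 0.061 with the correction.

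The next comparison asked how CIP overexpression after surgery changed these genes in the loaded heart. None of the 25 was called in CIP-OE-TAC against Ctrl-TAC, where limma called 4.82% of all genes higher and 6.88% lower. Either way, 11.7% were called. There were 3 of the 25 with an unadjusted p under 0.05, against 33.2% of all genes, and the groups did not overlap for 7, against 36.1% of all genes. In the same classes of level, 8.72% of all genes with a mean under 50 and 13.3% of the others were called. The median log2 change was -0.10 over the 25 and 0.0067 over all genes. This comparison shares the Ctrl-TAC hearts with the one above.

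Cenpf had a mean of 37.4 in CIP-OE-TAC against 12.05 in Ctrl-TAC, 3.10-fold, and all CIP-OE-TAC values lay above all Ctrl-TAC values. Its log2 change of 1.53 ± 0.593 missed the threshold (adjusted p = 0.1003). That outcome turns on the wide CIP-OE-Sham hearts, which share the error estimate: the adjusted p was 0.0122 in a fit of the 2 compared groups alone, 0.00425 without KI_Sham_3737 and 0.00925 without KI_Sham_3643. After the GC correction the change was 1.23 (adjusted p = 0.348). CIP-OE-TAC also lay under Ctrl-Sham, by -1.80 ± 0.593 (adjusted p = 0.113), again with no overlap. None of the 25 was called in that comparison, where limma called 2.73% of all genes higher and 1.6% lower (4.33% either way), and the groups did not overlap for 6 of the 25, against 28.4% of all genes. There were 2 of the 25 with an unadjusted p under 0.05, against 20.5% of all genes. Without KI_Sham_3737 the adjusted p of Cenpf there was 0.00313, and without KI_Sham_3643 0.00879.

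Smc4 lay at 99.4, 105 and 116 in CIP-OE-TAC, above every Ctrl-TAC value and close to the Ctrl-Sham values of 93.6 to 116. Against Ctrl-TAC its log2 change was 0.56 ± 0.164 (adjusted p = 0.0227), less than 1.5-fold, and 0.14 (adjusted p = 0.686) after the GC correction. Ccnd1 lay at 472, 506 and 280, below every Ctrl-TAC value (log2 change -0.50 ± 0.173, adjusted p = 0.0527, and -0.41 with adjusted p = 0.231 after it). KI_TAC_3587 was the lowest, and without it the change was -0.23. Without KI_TAC_3579 or KI_TAC_3577 it was called (adjusted p = 0.0313 and 0.0461).

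Ccnd2 lay at 1132, 1065 and 971 and Cdk4 at 332, 285 and 309 in CIP-OE-TAC, each below all 3 Ctrl-TAC values, at log2 changes of -0.20 ± 0.145 (adjusted p = 0.345) and -0.25 ± 0.125 (adjusted p = 0.169). After the GC correction these were -0.31 and -0.041. Mcm6 had a mean of 27.5 against 55.8 (log2 change -1.03 ± 0.603, adjusted p = 0.257, and 0.0156 without KI_Sham_3737), and -1.14 (adjusted p = 0.359) after the correction. Mki67 lay at 28.4, 29.1 and 26.3, at a change of -0.10 ± 0.380 (adjusted p = 0.880), and -0.24 after it.

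Between the sham groups none of the 25 was called, where limma called 0.0149% of all genes higher and 0.00747% lower (0.0224% either way). There was 1 of the 25 with an unadjusted p under 0.05, against 11.2% of all genes, and the groups did not overlap for 3, against 17.8% of all genes. The 1 gene was Ccnd1, with 358, 374 and 330 in CIP-OE-Sham against 534 to 544 in Ctrl-Sham. The groups did not overlap and the means differed 1.52-fold (log2 change -0.60 ± 0.173, adjusted p = 0.207). A fit of these 2 groups alone gave an adjusted p of 0.0237. Ccnd2 lay at 735, 944 and 1218 in CIP-OE-Sham, a spread that covers every Ctrl-Sham value, and its highest value came from KI_Sham_3737. Cdk4 lay at 289, 308 and 305. Smc4 lay at 99.7, 122 and 92.8 and Mki67 at 36.9, 35.7 and 14.8, both overlapping Ctrl-Sham. The lowest of the 3 Mki67 values came from KI_Sham_3737.

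Among the CIP-OE-Sham hearts KI_Sham_3737 combined the least Mlip (1911) with the most Cenpf (196), while KI_Sham_3643 had 5492 and 23.4 and KI_Sham_3644 had 4596 and 61.6. Ctrl hearts all had less Mlip: 823 to 936 beside Cenpf of 9.24 to 14.8 in Ctrl-TAC, and 926 to 1322 beside 120 to 148 in Ctrl-Sham. The part of the Mlip level in the Cenpf level was not tested. Cenpf changed by -0.95 ± 0.593 (adjusted p = 0.585) between the sham groups, and by -1.73 (adjusted p = 0.0674) without KI_Sham_3737.

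In CIP-OE hearts TAC changed none of the 25 past the threshold, with none at an unadjusted p under 0.05 (12.6% of all genes), where limma called 0.732% of all genes higher and 0.478% lower (1.21% either way). The groups did not overlap for 4 of the 25, against 18.8% of all genes. Cenpf gave -0.85 ± 0.593 (adjusted p = 0.642) there. Whether the TAC change differed between genotypes was tested as an interaction, which called 5.19% of all genes higher and 6.07% lower (11.3% either way) but none of the 25, of which 2 had an unadjusted p under 0.05, against 29.3% of all genes. For Cenpf it was 2.48 ± 0.839 (adjusted p = 0.0816). It was 3.26 (adjusted p = 0.00179) without KI_Sham_3737 and 1.75 (adjusted p = 0.0451) without KI_Sham_3643. Leaving out any other library gave no call of Cenpf, nor did the GC correction. With that correction the interaction called 0.362% of all genes higher and 0.528% lower.

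A further 139 cell cycle genes, listed by role and chosen with earlier results of these data known, were read for comparison, and 90 were tested. In Ctrl-TAC against Ctrl-Sham 8 of the 90 rose and 22 fell, beside 16.8% of all genes higher and 13.7% lower, at a median log2 change of -0.14. The falls lay mostly among the condensin and cohesin genes, with 8 of 13 lower and 1 higher at a median of -0.61, and the cyclins and CDK regulators, with 5 of 11 lower and 1 higher at -0.58. After the GC correction these counts were 0 of 13 and 1 of 11 lower, and none higher, beside 7.59% of all genes lower and 7.19% higher with that correction. Mitosis and cytokinesis genes had 3 of 16 higher and none lower, at a median of 0.52, with 1 of 16 higher after the correction.

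Wee1, the kinase that restrains Cdk1 before mitosis, had values of 184, 166 and 191 in Ctrl-Sham and 52.6, 54.3 and 55.5 in Ctrl-TAC. It fell by 1.71 on the log2 scale (SE 0.222, adjusted p = 1.3e-05) and by 1.76 (adjusted p = 3.1e-05) after the GC correction. Cdkn1a, which encodes the CDK inhibitor p21, was the 1 inhibitor of 5 tested that was called. Its values were 113, 144 and 44.5 in Ctrl-Sham and 262, 577 and 1048 in Ctrl-TAC, with no overlap (log2 change 2.58 ± 0.745, adjusted p = 0.0240). After the GC correction the change was 2.16 (adjusted p = 0.0827). It was 2.08 (0.0825) without Ctrl_Sham_4033, 2.102 (0.0743) without Ctrl_TAC_4231 and 2.53 (0.061) without Ctrl_TAC_3800. Of the 5 inhibitors, 0 were called higher and 1 was called lower after the GC correction, and their median log2 change moved from 0.32 to -0.21.

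Rad21, the kleisin subunit of cohesin, fell by 0.87 (adjusted p = 1.5e-05), while its change after the correction was -0.52, less than 1.5-fold. Lin52, a subunit of the DREAM complex, fell by 1.27 (adjusted p = 0.000155), and by 0.92 after it. In CIP-OE-TAC against Ctrl-TAC 4 of the 90 rose and 2 fell, beside 4.82% and 6.88% of all genes. After the GC correction none of the 90 was called, beside 1.03% of all genes higher and 1.52% lower. The smallest p-values belonged to Fzr1, an activator of the anaphase-promoting complex (log2 change -0.74, adjusted p = 0.00458), and to the cohesin genes Wapl (0.64, adjusted p = 0.00484) and Smc3 (0.63, adjusted p = 0.00743). After the GC correction the changes were -0.15 for Fzr1 (limma, adjusted p = 0.633), 0.26 for Wapl (0.267) and 0.29 for Smc3 (0.290). With the deposited scaling but without Ctrl_TAC_3586, Wapl and Smc3 changed less than 1.5-fold (0.56 and 0.58), as did Smc3 without KI_TAC_3587 (0.58).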

How the data were processed

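RNA-seq of whole mouse hearts gave 12 libraries in 4 groups of 3, assigned by their GEO titles. The deposited table holds reads per gene divided by 1 size factor per library, a normalized signal made by the authors. Their processing notes name HISAT2 2.0.4, StringTie 2.1.4, DESeq2 1.4.5 and GRCm38, while the methods name STAR and featureCounts. Multiplying by the factors recovered whole reads for 100% of values (tolerance 0.001). Of 54515 rows, 633 exact duplicates were dropped. Coordinates and transcript lengths came from GENCODE M21 for 53043 symbols.

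Log2(value + 1) of 13392 genes, those that reached 10 in 3 or more libraries, was fitted with limma 3.58.1 (R 4.3.3; trend, robust, a mean per group, all libraries). Fold changes on this scale understate those of low genes. Calls needed an adjusted p (Benjamini-Hochberg) under 0.05 and more than 1.5-fold. Nothing says that hearts of a group came from separate litters or batches, and p-values measure the spread between hearts. Alternatives were pseudocounts of 0.1 and 5, no filter or a filter at 50, TMM scaling, scaling to totals that leave out mitochondrial genes and the 20 most abundant, edgeR 4.0.16, DESeq2 1.42.0, corrections for GC and for GC and length (a spline with 5 degrees of freedom per library), no trend, the compared groups only, and leaving out each library. The procedure was tested on simulated data.

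The members and lists were chosen with earlier results of these data known. Given per library are the members called in any comparison and the 3 most abundant, with others where a comparison turns on them, which were chosen after their values were seen. Of the other cell cycle genes, the 3 called with the smallest p in each main comparison and every called CDK inhibitor are named.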

Additional observations from a re-analysis of the deposited data

Results flagged for a closer look

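The interaction of genotype and surgery, which asks whether the change after TAC differed between CIP-OE and Ctrl hearts, passed an adjusted p of 0.05 (limma) for 5 of the 7 further cell cycle genes named above. These genes were named for their small p in comparisons that share the Ctrl-TAC hearts with the interaction, so their values are a description and no independent test. The interaction was 1.48 on the log2 scale for Wee1, 1.59 for Lin52, 0.68 for Rad21, 0.76 for Wapl and -0.89 for Fzr1. A positive value means that the gene fell less, or rose more, after TAC in CIP-OE hearts. After the GC correction it was 1.51 for Wee1, 1.23 for Lin52, 0.32 for Rad21, 0.25 for Wapl and -0.15 for Fzr1. The adjusted p (limma) was then 0.0635 for Lin52, 0.386 for Rad21, 0.581 for Wapl and 0.810 for Fzr1, all above 0.05. With that correction the interaction called 0.362% of all genes higher and 0.528% lower. Of the 90 further cell cycle genes tested 6 were called higher and 3 lower by this term, beside 5.19% and 6.07% of all genes. Of the 39 genes themselves 25 were tested, and none of these was called.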

How the results depend on the processing

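The fall of Cenpf in Ctrl-TAC against Ctrl-Sham kept its direction and its call under all 12 alternatives and without each of the 12 libraries (log2 change -3.48 to -2.83, adjusted p at most 0.0109). The number of the 39 genes called higher there went from 0 to 1 with a pseudocount of 5, edgeR and the compared groups only (Kif23), without the filter (Aspm) and with the GC and length correction (Mki67), and lay between 0 and 3 without 1 library. The number called lower went from 1 to 2 when scaled to totals that leave out mitochondrial and the 20 most abundant genes (Cdk6), and lay between 1 and 2 without 1 library. In CIP-OE-TAC against Ctrl-TAC, those totals gave 1 higher (Smc4), the compared groups only gave 1 higher (Cenpf) and 1 lower (Mcm6), and leaving out 1 library gave 0 to 1 in each direction. The compared groups only also gave 1 lower in CIP-OE-Sham against Ctrl-Sham (Ccnd1) and 1 lower in CIP-OE-TAC against Ctrl-Sham (Cenpf), and leaving out 1 library gave 0 to 1 in the latter and 0 to 1 higher in the interaction. The main count was 0 in each of these. The cause was not tested.

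Signs turned in Ctrl-TAC against Ctrl-Sham for Ccnd1 (-0.044 with GC, -0.046 with GC and length, and -0.029 to 0.15 without 1 library, the lowest without Ctrl_TAC_3800), Cdk4 (-0.14 and -0.15), Smc4 (0.061 and 0.051) and Fzr1 (-0.065 and -0.038), and for the Smc4 interaction (-0.021 and -0.017). Per kb of transcript the log2 ratio of the kinetochore, spindle and cytokinesis sums was -0.32 instead of -0.98 in Ctrl-TAC against Ctrl-Sham, 0.044 instead of 0.26 between the TAC groups and -0.28 instead of -0.73 in CIP-OE-TAC against Ctrl-Sham, since Cenpf has the second longest transcript of the 39. No paired analysis was possible because the animal numbers of the groups are all different. The filter on low values kept 14 of the 39 genes out of the main test.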
